A study of Mus musculus with 23 samples.

Results

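Undifferentiated mouse ESCs (embryonic stem cells) of the line R1 with the genotype label of a SET knockout (KO) were set against wild-type (WT) R1 cells of the same title set, the second of 2 sets of undifferentiated R1 cultures in the series. The members were the 10 libraries, of 23 in all, whose titles carry the codes 2c and 2d (line KO1), 2e and 2f (line KO2) or 2a and 2b (WT) and name no retinoic acid. Libraries that share a code were summed, which left 6 samples: 4 KO (2 KO1 and 2 KO2, genotype SET-/-) and 2 WT (genotype Wt). No other allele, agent, age or time is given for these cells. KO and WT cells were all kept on mouse embryonic fibroblasts in medium with 15% serum and LIF. RNA was read by 3′ tag sequencing (QuantSeq, from 500 ng of total RNA), which counts reads near the end of each polyadenylated transcript. KO1 and KO2 are named as lines. Whether either is 1 clone, whether the same lines were used in set 1 and how Set was edited are not given in the sources used here. No label says that samples came from separate cultures, so every p-value rests on a spread that may be technical.

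SET is a nuclear protein that binds histones as a chaperone, shields histone tails from acetyltransferases and inhibits the phosphatase PP2A. It also binds the unmodified C-terminal tail of p53 and restrains p53 as an activator of transcription. In ESCs p53 raises cell cycle arrest and death genes and opposes the self-renewal network, whereas β-catenin, the effector of Wnt signalling, acts on both self-renewal and primitive streak genes. The title of the series names SET, p53 and β-catenin in ESC differentiation.

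Summed KO samples held 2833064 (2c), 5423806 (2d), 5529979 (2e) and 3166818 (2f) counts, and WT samples 3246105 (2a) and 10217040 (2b). A floor of 3 counts corresponded to 0.543 to 1.06 CPM (counts scaled by library size) in KO samples and to 0.294 to 0.924 in WT samples. Such floors cover counting error only. The 10 single libraries fell into 2 clusters of 5 on their main principal component (33.9% of the variance), and each cluster held KO1, KO2 and WT libraries. Of the 4 codes with 2 libraries, the second library was always in cluster B and the first always in cluster A. The labels name no batch. Summed samples mixed the clusters unequally, since 2c held only a cluster B library and 2f only a cluster A library. Of the 10217040 counts of WT sample 2b, 7941952 came from its cluster A library. Genotype and cluster weight are thus not balanced in summed samples. For genes that differ between clusters, a KO against WT value can mix both. The gap between the clusters was 18.5 units, against spans of 14.4 units in B and 19.5 in A. Libraries of 1 code correlated with each other at 0.953 to 0.966 (log2 CPM over genes), and each library's best correlation with another code of its group was 0.959 to 0.979. Of the 8 libraries with a partner, the first of KO1 sample 2d alone correlated better within its code (0.963) than with another code (0.959). None was treated as a repeat deposit of another.

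Defining ESC transcripts were present in both genotypes. Their summed level was 1705 to 2117 CPM in KO samples and 2791 to 2951 CPM in WT samples. Of the 10 ESC markers, 7 passed as lower in KO (edgeR adjusted p under 0.05). The others, Pou5f1, Nanog and Dppa5a, had negative log2 changes that did not pass. Pou5f1 was counted at low levels, 0.71, 4.14, 3.55 and 4.51 CPM in KO against 5.03 and 8.76 CPM in WT (log2 -1.10, edgeR adjusted p = 0.0853). It shares 317 exon bases with Gm19553 on the opposite strand, and reads mapping to several places or genes were not counted. Whether this lowered the Pou5f1 counts was not tested, so they may understate the transcript. Defining markers of feeder fibroblasts summed to 79.0 to 113.5 CPM in KO samples and to 50.3 to 64.3 CPM in WT samples, without overlap between single libraries either (79.0 to 113.2 in KO, 41.6 to 64.7 in WT). Of these 7 markers 6 were tested and 2, the collagen genes Col1a1 and Col1a2, passed as higher, while Lum stayed under 1 CPM everywhere. Macrophage markers summed to 3.78 to 6.22 CPM in KO and to 4.08 CPM in both WT samples, with Adgre1 at 0. In bulk RNA, more cells of a type and more RNA per cell cannot be told apart.

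Over all genes, 1165 of 12681 tested passed between KO and WT (9.19%; edgeR quasi-likelihood test, Benjamini-Hochberg adjusted p under 0.05, here "called"). Of these, 715 were higher in KO (5.64% of tested genes) and 450 lower (3.55%). Changes over 2-fold were called in 404 genes, 294 higher and 110 lower. For 557 called genes every KO library lay beyond every WT library (358 above, 199 below), where 7.11% of all tested genes did so. The count moved with single samples. It was 195 without WT sample 2b, 502 without WT sample 2a, 607 without KO2 sample 2e, 748 without KO1 sample 2d and 2335 without KO2 sample 2f. Within clusters B and A, 1583 and 434 genes were called. Of 96 called genes named here with values, 87 were also called within cluster B and 72 of the 95 tested there within cluster A, and 75 in second and 72 in first libraries.

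**Figure D1:**
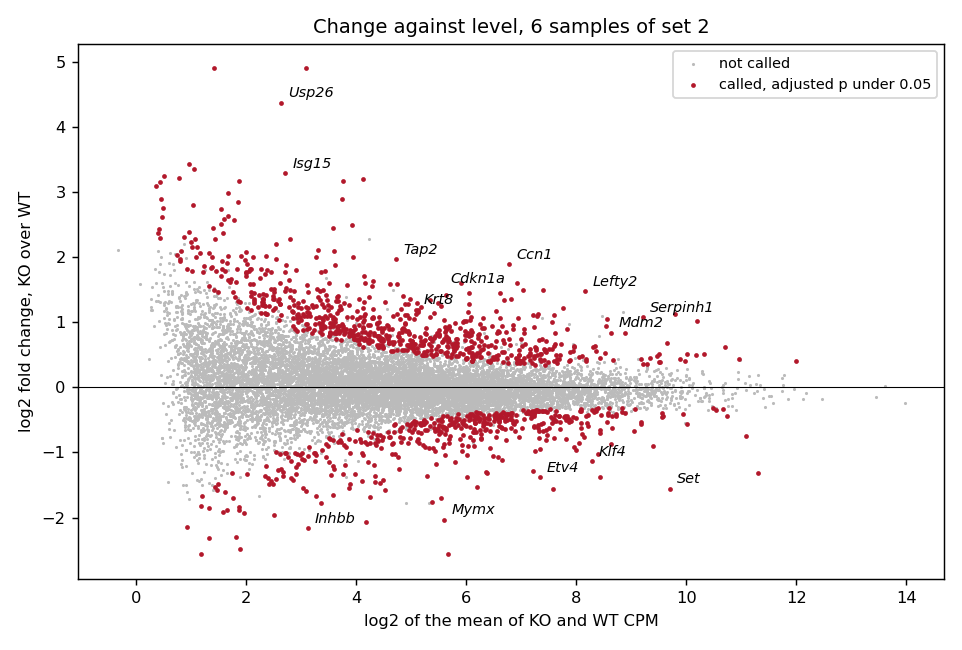
Log2 fold change of KO over WT against the log2 of the mean CPM of both groups, 1 point per tested gene, with the 1165 called genes in red. Set lies at -1.56 among well counted transcripts, and Cdkn1a, Lefty2 and Tap2 lie at 1.49, 1.47 and 1.97.

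The Set transcript (ENSMUSG00000054766, GRCm38 chromosome 2, 30057378 to 30072577, plus strand) was reduced but still abundant in both KO lines. It stood at 501 and 546 CPM in KO1 samples 2c and 2d and at 380.2 and 266 CPM in KO2 samples 2e and 2f, against 1158 and 1338 CPM in WT samples 2a and 2b. Each KO sample lay below both WT samples, and so did each single library. The KO mean was 423 ± 126 CPM (SD, n = 4) and the WT mean 1248 ± 127 CPM (SD, n = 2), a log2 fold change of -1.56 (SE 0.26, edgeR adjusted p = 0.0135). The KO2 mean was 323 CPM and the KO1 mean 524 CPM (n = 2 each), and this difference did not pass (log2 of KO2 over KO1 -0.69, SE 0.15, adjusted p = 0.384). Without WT sample 2a the adjusted p for Set was 0.0752, and without 2b it was 0.108. The Set call was also lost with counts summed per line, within cluster A and in first and in second libraries, while its log2 change stayed between -1.72 and -1.40 over 20 alternatives. A 3′ tag outside the edited sequence does not check the coding lesion.

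Several transcripts of p53 target genes were higher in KO. Cdkn1a (chromosome 17, 29090976 to 29100727), which encodes the CDK inhibitor p21 and arrests the cell cycle, had 183, 185, 183 and 216 CPM in KO samples 2c, 2d, 2e and 2f, against 71.3 and 65.7 CPM in WT samples 2a and 2b. The lowest KO library lay above the highest WT library. The log2 fold change was 1.49 (SE 0.12, edgeR adjusted p = 3.71e-07), and the call held under every alternative and without each sample in turn. Mdm2, whose product ubiquitylates p53, had 528, 445, 440.5 and 626 CPM in KO and 283 and 287 CPM in WT (log2 0.84, SE 0.13, adjusted p = 0.000383). The polo-like kinase gene Plk2 had 96.1, 111, 105 and 114 CPM in KO and 50.3 and 51.3 in WT (log2 1.07, SE 0.12, adjusted p = 1.85e-05). Neither gene had overlapping libraries between genotypes.

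**Figure D2:**
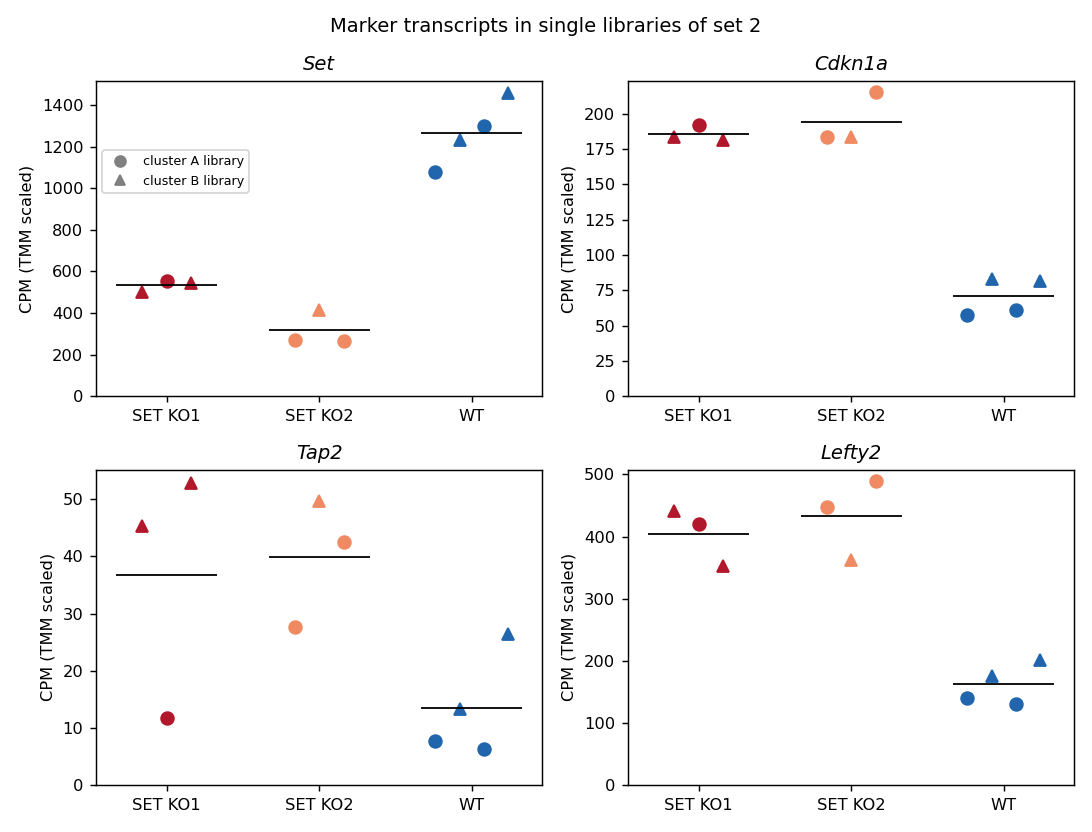
CPM of Set, Cdkn1a, Tap2 and Lefty2 in single libraries of KO1, KO2 and WT, with the mean of each group as a bar and the library cluster as the symbol. KO and WT libraries do not overlap for Set, Cdkn1a or Lefty2, and for Tap2 1 KO1 library at 11.8 CPM lies among the WT libraries.

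Of 17 tested arrest and feedback targets of p53, 8 were called higher and 0 lower, with a median log2 fold change of 0.66 (0.012 over all tested genes). This and later counts of list members stand beside 5.64% called higher and 3.55% called lower over all tested genes. Ccng1, an atypical cyclin gene, had 221, 232, 255 and 249.5 CPM in KO and 149 and 154 in WT (log2 0.66, adjusted p = 0.000489). Trp53inp1, a nuclear partner of p53, had 134, 137, 139.8 and 136 CPM in KO and 83.6 and 89.4 in WT (log2 0.66, adjusted p = 0.000665). For both, all KO libraries lay above all WT libraries.

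Of 19 tested p53 targets in cell death and survival, 6 were called higher and 0 lower (median log2 0.31). The share higher was 31.6%, against 5.64% over all tested genes. Phlda3, an inhibitor of the kinase Akt, had 214, 175, 196 and 204 CPM in KO and 93.0 and 111 in WT (log2 0.93, SE 0.12, adjusted p = 5.18e-05). Perp, a desmosome-associated membrane protein gene, had 67.2, 62.3, 61.3 and 81.2 CPM in KO and 36.8 and 37.3 in WT (log2 0.87, adjusted p = 0.000768). Apaf1, the core of the apoptosome, had 84.3, 92.8, 100.6 and 69 CPM in KO and 46.2 and 53.3 in WT (log2 0.80, adjusted p = 0.00163). These samples did not overlap, although single libraries of Apaf1 did. The death receptor gene Tnfrsf10b had 64.3, 64.3, 68.2 and 83.5 CPM in KO and 38.3 and 50.3 in WT (log2 0.63, adjusted p = 0.0111, but 0.189 without WT sample 2a). Trp73, a p53 relative, had 13.2, 16.8, 16.9 and 16.8 CPM in KO and 6.28 and 6.37 in WT (log2 1.34, adjusted p = 0.00131, but 0.0715 without WT sample 2b). Of 23 tested metabolism and repair targets 4 were called higher and 0 lower (median log2 0.22). Tap1 is among these 4 and is also counted in the MHC class I list below. The Trp53 transcript itself had 73.3, 92.8, 91.9 and 84.8 CPM in KO and 118 and 103 in WT, and its log2 change of -0.35 was not called (adjusted p = 0.0802). It was called without KO2 sample 2f (adjusted p = 0.0339).

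The sequences upstream of 3 called arrest and feedback targets are printed because they hold the decamer that p53 binds in pairs. The windows come from RefSeq (GRCm38.p6) and run 5′ to 3′ on the strand of the gene, with the decamers in capitals. The Cdkn1a stretch lies at chr17:29090829-29090968 on the plus strand and holds 2 decamers. Those of Mdm2 (chr10:117710859-117711008) and Ccng1 (chr11:40755387-40755536) lie on the minus strand and hold 1 each.
Cdkn1a: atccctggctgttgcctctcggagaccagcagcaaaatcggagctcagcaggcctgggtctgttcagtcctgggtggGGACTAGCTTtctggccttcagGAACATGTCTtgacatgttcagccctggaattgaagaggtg
Mdm2: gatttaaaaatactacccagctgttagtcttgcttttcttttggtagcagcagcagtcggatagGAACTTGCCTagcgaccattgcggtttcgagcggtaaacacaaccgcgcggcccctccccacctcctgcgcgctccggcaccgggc
Ccng1: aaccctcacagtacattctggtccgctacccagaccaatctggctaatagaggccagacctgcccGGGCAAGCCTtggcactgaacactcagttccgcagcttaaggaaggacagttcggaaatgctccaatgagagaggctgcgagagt
Both strands were searched from 250 bases upstream of the start. A p53 decamer occurred in the windows of 2216 of 27025 genes (8.20%), in 3 of 7 matched called arrest targets and in 4 of 9 matched uncalled ones. Among death and survival targets it occurred in 0 of 3 matched called genes and in 4 of 12 uncalled ones. A match is a description of the letters, not a bound site.

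Several genes of MHC class I antigen processing, the pathway that cuts proteins and loads the peptides for display at the cell surface, were higher in KO. Tap2 (chromosome 17, 34203527 to 34216321), a subunit of the peptide transporter of the endoplasmic reticulum, had 45.4, 36.9, 44.2 and 42.5 CPM in KO samples 2c, 2d, 2e and 2f, against 10.7 and 10.8 CPM in WT samples 2a and 2b. The samples did not overlap. Single libraries did, since the first library of KO1 sample 2d held 11.8 CPM and the second library of WT sample 2b held 26.5. The log2 fold change was 1.97 (SE 0.18, edgeR adjusted p = 1.48e-06). With every library as its own sample, or within cluster A, the call was lost. Over 20 alternatives the log2 change of Tap2 ran from 1.27 to 2.28.

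Tap1, the other transporter subunit, had 32.9, 24.3, 26.7 and 21.6 CPM in KO and 10.7 and 7.57 in WT (log2 1.59, SE 0.23, adjusted p = 0.000188), with no overlap between libraries. Psmb9, a catalytic subunit of the immunoproteasome, had 11.1, 14.2, 11.9 and 14.8 CPM in KO and 5.03 and 5.57 in WT (log2 1.27, adjusted p = 0.00363). Tap1 and Psmb9 stand head to head and share 212 exon bases. The proteasome activator gene Psme2 had 17.2, 20.5, 17.4 and 13.9 CPM in KO and 7.54 and 8.06 in WT (log2 1.14, adjusted p = 0.00390). H2-D1, a class I heavy chain with close paralogs, had 96.1, 87.8, 89.7 and 75.8 CPM in KO and 53.7 and 54.7 in WT (log2 0.69, adjusted p = 0.00181). Each of the 4 KO samples exceeded both WT samples in all these genes. Of 19 tested members 9 were called higher and 0 lower, with a median log2 of 0.69. Without WT sample 2b the adjusted p was 0.104 for Psmb9, 0.107 for Psme2 and 0.0706 for H2-D1.

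Interferon response and guanylate-binding genes, which defend cells against infection, were often too low to test, with 23 of 44 passing the filter on low counts. Of these, 5 were called higher (21.7%, against 5.64% over all tested genes) and 0 lower (median log2 0.36). Isg15, a ubiquitin-like modifier, had 11.4, 8.29, 10.1 and 18.4 CPM in KO and 0.63 and 1.39 CPM in WT (log2 3.28, SE 0.43, adjusted p = 6.35e-05), from 32 to 57 counts in KO and 2 and 14 counts in WT samples. Gbp2b, a guanylate-binding GTPase gene, had 20.4, 14.8, 15.3 and 11.6 CPM in KO and 3.77 and 3.88 in WT (log2 1.99, adjusted p = 0.000165). All KO libraries lay above all WT libraries for both. The paralogs Gbp7 and Gbp2 averaged 6.19 ± 1.54 and 7.91 ± 2.42 CPM in KO (SD, n = 4), against 0.98 ± 0.40 and 2.38 ± 1.53 CPM in WT (SD, n = 2), with log2 fold changes of 2.85 and 2.02. Ifi35 had 23.9, 20.4, 14.2 and 14.2 CPM in KO and 9.43 and 6.97 in WT (log2 1.20, adjusted p = 0.00693). Ifitm7, an interferon-induced transmembrane family gene among the 12 highest changes, had 17.5, 29.9, 23.1 and 26.1 CPM in KO and 8.17 and 5.08 in WT (log2 2.0, adjusted p = 8.23e-05). Without WT sample 2b the adjusted p was 0.101 for Gbp7, 0.325 for Gbp2 and 0.274 for Ifi35.

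Upstream sequences of the 4 called interferon genes that hold the letters GAAA in a pair are shown because they carry this element. The pattern is a pair of GAAA runs with any 2 bases between, the core read by interferon regulatory factors, searched on both strands, so that a match on the other strand reads as TTTC. Capitals mark the pairs, which overlap 3 times over in Isg15. All are RefSeq windows on GRCm38.p6: Isg15 at chr4:156200819-156200968 (minus strand), and Gbp2b at chr3:142594697-142594846, Gbp7 at chr3:142530186-142530335 and Gbp2 at chr3:142620594-142620623 (plus strand, the last partly within an annotated Gbp2 exon).
Isg15: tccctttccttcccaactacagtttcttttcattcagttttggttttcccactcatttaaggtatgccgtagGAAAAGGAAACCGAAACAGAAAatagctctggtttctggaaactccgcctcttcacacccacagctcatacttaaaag
Gbp2b: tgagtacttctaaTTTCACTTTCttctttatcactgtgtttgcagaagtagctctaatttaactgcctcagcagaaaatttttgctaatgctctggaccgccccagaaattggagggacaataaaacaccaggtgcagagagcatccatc
Gbp7: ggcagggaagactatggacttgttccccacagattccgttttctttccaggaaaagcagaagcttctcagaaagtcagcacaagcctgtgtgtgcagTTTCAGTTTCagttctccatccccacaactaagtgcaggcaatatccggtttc
Gbp2: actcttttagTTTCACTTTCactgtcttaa
The pair occurred in the windows of 936 of 27025 genes (3.46%). It was in 4 of the 5 called interferon genes, Ifi35 lacking it, and also in 8 of 14 matched uncalled ones. Among MHC class I genes it was in 1 of 8 matched called members (B2m) and in 0 of 8 matched uncalled ones. The box CCAAT, searched on both strands in the same windows, was in 5 of 8 called and 6 of 8 uncalled MHC class I genes, and in 37.5% of all windows.

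Most naive pluripotency transcripts were lower in KO. Klf4 (chromosome 4, 55527143 to 55532466), a factor of the naive network driven by LIF, had 166, 174, 193 and 246 CPM in KO samples 2c, 2d, 2e and 2f, against 412 and 441 CPM in WT samples 2a and 2b. Samples did not overlap, while a KO2 library at 292 CPM lay above WT libraries at 284 and 280 CPM. The log2 fold change was -1.14 (SE 0.13, edgeR adjusted p = 1.42e-05). Esrrb, an orphan nuclear receptor that activates the same network, had 170.5, 198, 157 and 166 CPM in KO and 304 and 347 in WT (log2 -0.92, SE 0.11, adjusted p = 2.43e-05), with no overlap between libraries. Klf2 had 160.5, 188, 182 and 226 CPM in KO and 313 and 369 in WT (log2 -0.86, SE 0.12, adjusted p = 0.000125).

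Of 37 tested core and naive genes 22 were called lower and 1, Dppa3, higher, with a median log2 of -0.57. Tet2, a 5-methylcytosine oxidase, had 36.5, 50.5, 48.9 and 56.4 CPM in KO and 100.5 and 137 in WT (log2 -1.31, adjusted p = 1.42e-05). The growth factor gene Fgf4 had 82.2, 120.0, 99.5 and 104 CPM in KO and 214 and 189 in WT (log2 -0.97, adjusted p = 5.18e-05). For both, every KO library lay below every WT library. Sox2, a core partner of OCT4, had 286, 272, 294 and 376 CPM in KO and 450.2 and 439 in WT (log2 -0.54, adjusted p = 0.00604, but 0.0688 without WT sample 2a and 0.100 without 2b). Nanog had 115, 105, 95.8 and 78.3 CPM in KO and 116 and 140.2 in WT, and its log2 change of -0.39 was not called (adjusted p = 0.0796; 0.0341 without KO1 sample 2c and 0.0450 without KO2 sample 2f). Tfcp2l1 and Tbx3, factors of the naive network, averaged 119.7 ± 11.9 and 135 ± 19.9 CPM in KO (SD, n = 4), against 179 ± 22.7 and 221 ± 53.4 CPM in WT (SD, n = 2). Their log2 changes were -0.59 (adjusted p = 0.00247) and -0.73 (adjusted p = 0.00256). Without WT sample 2b these were no longer called (adjusted p = 0.178 for Tfcp2l1 and 0.221 for Tbx3). Within cluster B and in second libraries Tbx3 changed sign, to 0.33 and 0.31, and Tfcp2l1 lay at 0.05 and -0.02.

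The LIF and STAT3 response, which keeps ESCs self-renewing, went both ways. Of 24 tested members 7 were called lower and 3 higher (median log2 0.02). These shares are 29.2% lower and 12.5% higher, against 3.55% and 5.64% over all tested genes. The homeobox gene Gbx2 had 4.65, 4.50, 12.1 and 7.74 CPM in KO and 21.7 and 21.9 in WT (log2 -1.54, adjusted p = 0.00233). Socs2, a feedback inhibitor of cytokine signalling, had 108, 140.0, 136 and 161 CPM in KO and 198 and 231 in WT (log2 -0.66, adjusted p = 0.00217). KO samples stood below WT samples for both. Without WT sample 2b neither was called (adjusted p = 0.0751 for Gbx2 and 0.130 for Socs2). The 3 members called higher were Socs1, Pim1 and Junb.

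**Figure D3:**
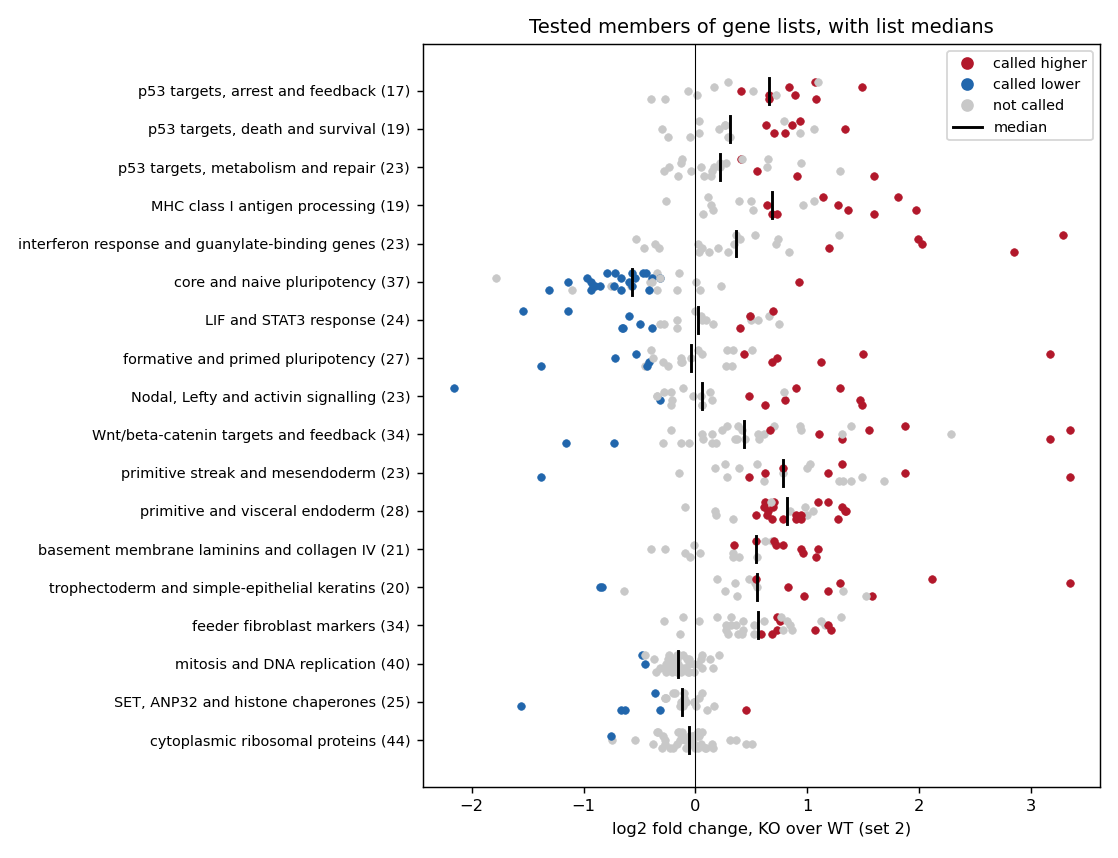
Log2 fold changes of KO over WT for the tested members of 18 gene lists, with the number of tested members in brackets, called members in colour and the list median as a bar. The medians run from -0.57 for core and naive pluripotency to 0.82 for primitive and visceral endoderm, and ribosomal protein genes lie near 0.

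The Nodal antagonist genes Lefty1 and Lefty2 were higher in KO, and ligand genes of the pathway went both ways. Nodal is a TGF-β family ligand, LEFTY1 and LEFTY2 are its secreted inhibitors and targets, and the pathway keeps mouse ESCs on the way to the epiblast fate. Lefty2 (chromosome 1, 180893108 to 180899103) had 441, 377, 382 and 491 CPM in KO samples 2c, 2d, 2e and 2f, against 159 and 146 CPM in WT samples 2a and 2b. All KO libraries lay above all WT libraries. The log2 fold change was 1.47 (SE 0.12, edgeR adjusted p = 5.82e-07) and was called under every alternative. Lefty1 had 201, 300.4, 214 and 279 CPM in KO and 104 and 76.2 in WT (log2 1.49, SE 0.17, adjusted p = 8.23e-05). The 2 genes are close paralogs, and reads mapping to both were not counted.

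Nodal itself had 53.6, 60.9, 66.6 and 53.5 CPM in KO and 35.8 and 47.2 CPM in WT. Its log2 change of 0.48 was at the threshold (SE 0.15, adjusted p = 0.0491) and was not called without 2a (0.423), 2b (0.104), 2d (0.118) or 2e (0.170). Furin, a protease that matures Nodal, had 100.1, 74.6, 78.9 and 75.4 CPM in KO and 47.1 and 46.9 in WT (log2 0.80, adjusted p = 0.00111, but 0.0614 without WT sample 2b). Fst, an activin-binding antagonist, had 33.6, 35.1, 33.4 and 23.2 CPM in KO and 15.7 and 17.7 in WT (log2 0.90, adjusted p = 0.00561, but 0.0643 without 2a and 0.0984 without 2b). KO samples exceeded WT samples in each of these. The ligand gene Gdf3 was not called (log2 -0.345, adjusted p = 0.144). Inhbb, the activin B subunit, was the lowest of the 12 lowest changes, with 1.43, 3.78, 3.55 and 3.55 CPM in KO and 12.6 and 15.9 in WT (log2 -2.16, SE 0.29, adjusted p = 8.88e-05). Of 23 tested members 7 were called higher and 2 lower (median log2 0.06). These shares are 30.4% higher and 8.7% lower, against 5.64% and 3.55% over all tested genes.

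Formative and primed pluripotency genes, which mark the exit from the naive state, were called higher in 6 of 27 and lower in 5 (median log2 -0.04). These shares are 22.2% higher and 18.5% lower, against 5.64% and 3.55% over all tested genes. Fgf5 had 15.4, 16.4, 18.5 and 13.2 CPM in KO and 4.08 and 6.47 in WT (log2 1.5, adjusted p = 0.000938). The kinase gene Pim2 had 218, 229, 235 and 178 CPM in KO and 119 and 82.2 in WT (log2 1.13, adjusted p = 9.37e-05). Neither had overlapping libraries. Pou3f1, a POU factor of the formative epiblast, had 111, 119, 144 and 132 CPM in KO and 89.5 and 65.7 in WT (log2 0.73, adjusted p = 0.00217, but 0.203 without WT sample 2b). Its sign turned within cluster B (-0.075) and in second libraries (-0.02). Among those lower, Etv4, a target of FGF signalling, had 70.8, 79.5, 84.4 and 125 CPM in KO and 219 and 246 in WT (log2 -1.38, SE 0.16, adjusted p = 8.88e-05). Otx2 had 141, 177, 173 and 158 CPM in KO and 225 and 163 in WT, with overlapping samples and no call (log2 -0.24, adjusted p = 0.261).

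The Wnt ligand genes Wnt8a and Wnt3 were higher in KO, whereas the ligand gene Wnt6 (log2 -0.06, adjusted p = 0.934), Axin2 and Ctnnb1 were not called. Wnt8a had 28.2, 24.3, 30.7 and 13.5 CPM in KO and 3.46 and 2.39 in WT (log2 3.17, SE 0.34, adjusted p = 1.10e-05). Wnt3, the ligand that starts the primitive streak, had 23.9, 18.0, 25.1 and 8.38 CPM in KO and 6.6 and 4.48 in WT (log2 1.88, SE 0.36, adjusted p = 0.00344, but 0.203 without WT sample 2b). KO2 sample 2f was the lowest KO sample for both, still above WT. Tnfrsf19, a receptor gene induced by β-catenin, had 52.5, 38.6, 41.4 and 30.0 CPM in KO and 19.17 and 18.5 in WT (log2 1.11, adjusted p = 0.00115, but 0.0705 without 2b). Id2 had 175, 180.0, 173 and 129 CPM in KO and 105 and 103 in WT (log2 0.66, adjusted p = 0.00241, but 0.0975 without 2b). In all, 7 of 34 tested targets were called higher and 2 lower (median log2 0.43). The 2 called lower were Notum and Tbx3. These shares are 20.6% higher and 5.88% lower, against 5.64% and 3.55% over all tested genes.

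Axin2, the scaffold induced as pathway feedback, had 16.1, 16.9, 17.6 and 8.70 CPM in KO and 6.91 and 12.2 in WT, so the samples overlapped (log2 0.56, adjusted p = 0.224; 0.0292 without KO2 sample 2f). Ctnnb1, which encodes β-catenin, had 25.0, 24.1, 22 and 22.6 CPM in KO and 19.17 and 19.6 in WT (log2 0.27, adjusted p = 0.392). Sp5, a direct target chosen for mention after its values were seen, had 52.2, 31.0, 33.4 and 9.35 CPM in KO and 5.34 and 6.97 in WT. Its spread between KO samples left a log2 change of 2.28 uncalled (SE 0.65, adjusted p = 0.0927), and it was called without KO1 sample 2c (0.0383) or KO2 sample 2f (3.32e-10). T (brachyury) had 31.8, 24.3, 18.7 and 6.12 CPM in KO and 9.11 and 6.97 in WT (log2 1.39, adjusted p = 0.138; 2.74e-06 without KO2 sample 2f). KO2 sample 2f, a single library of cluster A, lay below both WT samples for T and between them for Axin2.

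Most tested genes of primitive and visceral endoderm, the extraembryonic lineage that lines the blastocyst cavity and lays down basement membrane, were higher in KO. Of 28 tested, 19 were called higher and 0 lower (median log2 0.82). The endocytic receptor gene Lrp2 had 142, 137, 131 and 178 CPM in KO and 57.5 and 57.9 in WT (log2 1.34, SE 0.14, adjusted p = 3.71e-06). Podxl had 336, 272, 296 and 282 CPM in KO and 168 and 150.2 in WT (log2 0.90, adjusted p = 4.90e-05). No library of KO overlapped one of WT for either. The endoderm factor Sox17 had 37.9, 41.6, 33.8 and 19.3 CPM in KO and 11.3 and 14.8 in WT (log2 1.31, adjusted p = 0.00285), and Foxa2 had 64.3, 62.7, 63.4 and 54.8 CPM in KO and 41.8 and 38.7 in WT (log2 0.62, adjusted p = 0.00642). Pdgfra, a receptor of primitive endoderm and of fibroblasts, had 19.3, 13.9, 17.1 and 13.2 CPM in KO and 5.34 and 7.76 in WT (log2 1.19, adjusted p = 0.00529). Without WT sample 2b the adjusted p was 0.0531 for Sox17, 0.201 for Foxa2 and 0.0544 for Pdgfra, and without 2a it was 0.0702 for Pdgfra.

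Several basement membrane genes were higher in KO, some of them at high levels. Lamb1, a laminin chain, had 548, 490.1, 498 and 425 CPM in KO and 269 and 243 in WT (log2 0.94, SE 0.12, adjusted p = 3.19e-05). Col4a1, a type IV collagen chain, had 224, 216, 222 and 189 CPM in KO and 111 and 90.2 in WT (log2 1.10, SE 0.12, adjusted p = 1.07e-05). Serpinh1, the collagen chaperone, had 859.6, 734, 902 and 709 CPM in KO and 392 and 367 in WT (log2 1.08, SE 0.12, adjusted p = 9.47e-06). None of the 3 had overlapping libraries. Lama5 had 172, 159, 173 and 105 CPM in KO and 77.0 and 79.9 in WT (log2 0.96, adjusted p = 0.00146, but 0.0544 without 2b). Of 21 tested members 9 were called higher and 0 lower (median log2 0.54). Lama1, Lamb1, Lamc1, Col4a1 and Col4a2 among them are also called members of the endoderm list above, so the counts overlap. The share higher was 42.9%, against 5.64% over all tested genes.

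Some fibroblast markers were higher beside these groups. Over the whole list of 41, 34 were tested, 8 called higher and 0 lower (median log2 0.56), and the list summed to 3172 to 4143 CPM in KO samples and 2165 to 2461 CPM in WT samples. Sparc, a matrix protein gene of endoderm and fibroblasts alike, had 1055, 952, 1086 and 893 CPM in KO and 610.5 and 632 in WT (log2 0.68, adjusted p = 0.000407). Thbs1 had 46.8, 48.5, 50.6 and 49.0 CPM in KO and 20.4 and 22.1 in WT (log2 1.19, adjusted p = 5.18e-05). Cald1 averaged 198 ± 16.9 CPM in KO (SD, n = 4) and 120.2 ± 6.91 CPM in WT (SD, n = 2; log2 0.73), and Acta2, smooth muscle actin, 226 ± 31.1 and 149.9 ± 16 CPM (log2 0.59, adjusted p = 0.00574, but 0.130 without 2a and 0.0571 without 2b). The part of feeder cells in the endoderm, basement membrane and keratin results was not tested.

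Simple-epithelial keratins and trophectoderm genes were called higher in 8 of 20 and lower in 2 (median log2 0.55). These shares are 40% higher and 10% lower, against 5.64% and 3.55% over all tested genes. Krt8 had 50.04, 51.7, 55.6 and 32.6 CPM in KO and 20.1 and 21.6 in WT (log2 1.19, SE 0.19, adjusted p = 0.000502), and its filament partner Krt18 had 80.1, 52.1, 71.1 and 50.9 CPM in KO and 27.6 and 24.6 in WT (log2 1.29, adjusted p = 0.000164). Krt19 had 15.7, 14.4, 21.0 and 13.9 CPM in KO and 3.14 and 4.08 in WT (log2 2.11, SE 0.28, adjusted p = 8.23e-05). Libraries of the 3 keratins did not overlap between genotypes. The desmosome gene Dsp had 108, 92.1, 115 and 84.8 CPM in KO and 59.4 and 44.5 in WT (log2 0.98, adjusted p = 0.000334, but 0.0656 without 2b). The imprinted RNA H19 had 19.3, 20.9, 27.9 and 17.1 CPM in KO and 7.54 and 7.07 in WT (log2 1.58, adjusted p = 0.000350). Trophectoderm defining markers summed to 19.02 to 32.3 CPM in KO and to 13.2 to 18.3 CPM in WT, with Elf5 under 1 CPM everywhere.

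The 12 highest changes by the naming rule were led by Usp26, an X-linked deubiquitinase gene known from testis. It had 9.29, 11.5, 11.4 and 14.5 CPM in KO and 0.94 and 0.40 CPM in WT (log2 4.37, SE 0.44, adjusted p = 3.42e-06), from 26 to 64 counts in KO samples and 3 and 4 counts in WT samples. Trim67, a ubiquitin ligase gene of neurons, had 41.1, 38.9, 32.2 and 14.2 CPM in KO and 3.14 and 3.58 in WT (log2 3.20, adjusted p = 0.000241). Both were above WT in all KO libraries. Nefm, a neurofilament gene, had 32.9, 25.0, 22 and 13.5 CPM in KO and 3.46 and 2.99 in WT (log2 2.89, adjusted p = 1.79e-05). Its neighbour Nefl, on the opposite strand and sharing 1108 exon bases with it, had 48.3, 43.2, 35.9 and 27.7 CPM in KO and 19.8 and 15.0 in WT (log2 1.20, adjusted p = 0.00107, but 0.114 without 2b). Counting ignored strand, so reads in the shared bases could not be told apart and were counted for neither gene. Tns4 (log2 2.49), a focal adhesion gene, Zscan5b (log2 2.45), a zinc finger gene, and Ccn1 (log2 1.89), a matricellular gene, averaged 25.5 ± 8.95, 20.1 ± 3.95 and 174 ± 43.8 CPM in KO (SD, n = 4), against 4.98 ± 1.84, 3.84 ± 0.79 and 45.8 ± 9.26 CPM in WT (SD, n = 2).

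At the other end, Mymx, a microprotein of myoblast fusion, had 17.5, 23.6, 15.6 and 19 CPM in KO and 77.0 and 78.9 in WT (log2 -2.03, SE 0.16, adjusted p = 2.94e-07). Aass, a lysine-degrading enzyme gene, had 4.65, 6.49, 8.88 and 8.06 CPM in KO and 22.3 and 35.9 in WT (log2 -2.06, adjusted p = 1.94e-05). The noncoding RNA Halr1, upstream of the Hoxa cluster, had 17.9, 21.4, 16.3 and 33.2 CPM in KO and 64.7 and 76.2 in WT (log2 -1.70, adjusted p = 4.09e-05). For these 3, all KO libraries lay below all WT libraries. Itga9 (log2 -1.78), an integrin, Mras (log2 -1.75), a Ras family GTPase, Prmt8 (log2 -1.68), an arginine methyltransferase, and Sall3 (log2 -1.58), a zinc finger factor, averaged 4.54 ± 0.62, 19.3 ± 2.25, 8.98 ± 1.35 and 11.4 ± 3.13 CPM in KO (SD, n = 4). In WT they averaged 16 ± 0.0029, 64.1 ± 16.4, 29.1 ± 1.48 and 34.4 ± 5.48 CPM (SD, n = 2). Within cluster B and in second libraries Sall3 changed sign, to 0.06 and 0.25, and Mras was not called in second libraries (log2 -0.57).

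Families that SET belongs to or acts on differed in how many genes were called, against 3.55% lower and 5.64% higher over all tested genes. Of 25 tested SET, ANP32 and histone chaperone genes, 5 were called lower, Set among them, and 1 higher (median log2 -0.12). Anp32a, a partner of SET in the complex that inhibits histone acetylation, had 151, 139, 159.6 and 117 CPM in KO and 222 and 217 in WT (log2 -0.63, adjusted p = 0.00162). The H3.3 chaperone gene Hira had 19.3, 23.8, 26.3 and 27.1 CPM in KO and 37.1 and 39.4 in WT (log2 -0.66, adjusted p = 0.0149, but 0.0688 without 2a and 0.245 without 2b). Among 30 tested PP2A subunits and inhibitors 1 was called in each direction. The regulatory subunit gene Ppp2r2c had 109, 89.6, 90.4 and 70.9 CPM in KO and 45.9 and 42.7 in WT (log2 1.03, adjusted p = 0.000206), and Ppp2r5a had 25.7, 31.5, 30.2 and 41.6 CPM in KO and 60.6 and 70.8 in WT (log2 -1.04, adjusted p = 0.000301). Within cluster B and in second libraries the Ppp2r5a change was -0.39 and -0.34 and was not called. Linker and variant histone genes had 2 of 19 lower, one of them H2afx with 262, 256, 299 and 242 CPM in KO and 423 and 435 in WT (log2 -0.69, adjusted p = 0.000223).

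Cell cycle genes were tested in a pair of lists, with the same shares over all tested genes for comparison. Of 40 tested mitosis and replication genes 2 were called lower and 0 higher (median log2 -0.16), one being the checkpoint kinase gene Bub1b, at 192, 194, 198 and 199.5 CPM in KO and 266 and 279 in WT (log2 -0.48, adjusted p = 0.00344, but 0.121 without 2b). Of 20 CDK inhibitors and G1 cyclins 3 were called higher and 2 lower. The 2 called lower were Cdkn1b (log2 -0.58, edgeR adjusted p = 0.0381) and Ccne1 (log2 -0.33, adjusted p = 0.0486). Ccnd2 had 307, 256, 247 and 188 CPM in KO and 149 and 132 in WT (log2 0.84, adjusted p = 0.00172, but 0.0988 without 2b). Cdkn2a, the locus of p16 and p19ARF, had 69.3, 45.0, 45.5 and 72.8 CPM in KO and 30.8 and 22.6 in WT (log2 1.14, adjusted p = 0.00293, but 0.166 without 2b). KO samples lay above WT samples for both.

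Immediate early genes were called higher in 6 of 26 and lower in 2. Ier5 had 158, 108, 127 and 124 CPM in KO and 58.1 and 55.9 in WT (log2 1.18, adjusted p = 2.60e-05), and Jun had 88.6, 79.3, 90.6 and 74.1 CPM in KO and 53.7 and 44.3 in WT (log2 0.78, adjusted p = 0.000992, but 0.110 without 2b). Germline genes went 4 up and 4 down of 26, with Stra8, a gene of meiotic entry, at 37.5, 30.1, 41.8 and 26.8 CPM in KO and 90.5 and 63.5 in WT (log2 -1.15, adjusted p = 0.000333). Rpl10l, a retrogene copy of a ribosomal protein gene, had 115, 105, 105 and 119 CPM in KO and 218 and 210.4 in WT (log2 -0.95, adjusted p = 9.26e-06). Of 44 cytoplasmic ribosomal protein genes 1 was called, Rps20, which has many processed copies, at 1702, 1312, 1627 and 1848 CPM in KO and 2891 and 2578 in WT (log2 -0.75, adjusted p = 0.000344). The Rps20 call was lost in 5 of 20 alternatives (adjusted p up to 0.528), among them cluster A, the cluster as a covariate and first and second libraries, while its log2 change stayed between -0.87 and -0.66. These counts of immediate early, germline and ribosomal genes stand beside 5.64% higher and 3.55% lower over all tested genes.

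Neural genes were lower or uncalled in their defining list. Neural defining markers summed to 48.7 to 74.5 CPM in KO and to 91.0 to 99.9 CPM in WT. Tubb3, neuronal tubulin, had 52.2, 42.5, 55.3 and 65.4 CPM in KO and 90.5 and 82.6 in WT (log2 -0.69, adjusted p = 0.00448, but 0.0600 without 2a and 0.0614 without 2b). Stmn2 had 284, 254, 262 and 314 CPM in KO and 495 and 525 in WT (log2 -0.87, SE 0.10, adjusted p = 2.36e-05). Among 16 tested neuroectoderm genes 3 were called lower and 0 higher. Of 19 neuronal cytoskeleton and secretory genes 5 were called higher, Nefl and Nefm among them, and 3 lower, among them the intermediate filament gene Ina (log2 -0.69, adjusted p = 0.00443). The neurofilament gene Nefh was not called (log2 -0.185, adjusted p = 0.568). Glycolysis and hypoxia genes were called higher in 10% and lower in 3.33%, and imprinted genes in 10.7% and 7.14%. Over all tested genes the shares were 5.64% higher and 3.55% lower. These list shares rest on few called genes. Of 30 glycolysis and hypoxia genes 3 were called higher and 1 lower, the phosphofructokinase gene Pfkp, at 63.3, 63.1, 67.2 and 57.7 CPM in KO and 156 and 118 in WT (log2 -1.11, adjusted p = 1.42e-05). Imprinted genes had 3 of 28 higher and 2 lower, and Peg3 had 264, 255, 309.7 and 212 CPM in KO and 166 and 161 in WT (log2 0.67, adjusted p = 0.00205, but 0.0879 without 2b).

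The lines KO2 and KO1 were each compared with the same 2 WT samples, so their agreement is not independent. KO2 against WT gave 596 calls (4.70%; 394 higher, 202 lower) and KO1 against WT gave 1153 (9.09%; 676 higher, 477 lower). Without WT sample 2b these counts were 169 for KO2 and 319 for KO1, and without 2a they were 340 and 631. The KO2 count was 285 without 2e, and the KO1 count was 377 without 2c and 680 without 2d. Side by side, the log2 change was 1.55 in KO2 and 1.43 in KO1 for Cdkn1a, 2.02 and 1.92 for Tap2, 1.52 and 1.43 for Lefty2, and -0.97 and -1.33 for Klf4.

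KO2 against KO1 gave 3 calls of 12681 (0.0237%), with 698 genes at an unadjusted p under 0.05 and 2 calls by DESeq2. All 3 were Y-linked and lower in KO2. Without KO2 sample 2e 56 genes passed, and without KO1 sample 2c or KO2 sample 2f 1 did. The RNA helicase gene Ddx3y (chromosome Y, 1260771 to 1286629) had 6.04 and 7.09 CPM in KO2 samples 2e and 2f, against 29.7 and 30.1 CPM in KO1 samples 2c and 2d (log2 -2.21, SE 0.23, edgeR adjusted p = 7.90e-05). WT samples 2a and 2b held 60.0 and 63.8 CPM. The demethylase gene Uty had 3.55 and 2.90 CPM in KO2 and 11.8 and 13 in KO1 (log2 -1.91, adjusted p = 0.0399), with 20.1 and 20.6 CPM in WT. The translation factor gene Eif2s3y had 4.26 and 5.16 CPM in KO2 and 16.4 and 15.9 in KO1 (log2 -1.80, adjusted p = 0.0399), with 20.4 and 24.0 in WT. The order WT, KO1, KO2 was thus the same for these 3 genes, and their KO against WT difference was not called over both lines (adjusted p = 0.210, 0.103 and 0.182). In set 1 they averaged 37.2, 5.84 and 30.5 CPM in KO and 0.45, 0 and 1.34 CPM in WT, at or under the floor of 3 counts.

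The second and first libraries of the 4 codes with 2 libraries allowed the KO effect to be compared by library order, with 2 KO and 2 WT libraries at each position. This split was chosen after the clusters were seen. The effect differed in 50 of 11261 genes (0.444%), 19 with a more positive and 31 with a more negative value in second libraries. This fit treated the 2 libraries of a code as independent. With the title code as a block 19 genes passed, and which named genes are among them was not determined. Values of single genes by library order are from the fit without the block.

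**Figure D4:**
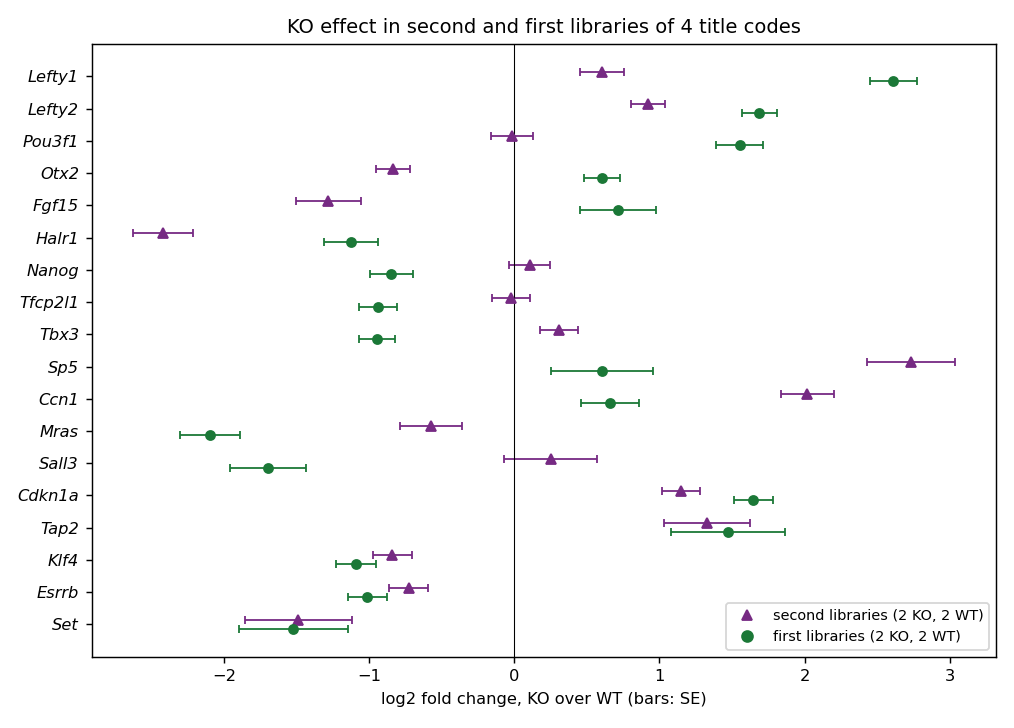
Log2 fold change of KO over WT (point, with SE) for 18 genes in the second and first libraries of codes 2a, 2b, 2d and 2e. Lefty1 and Pou3f1 lie at 0.60 and -0.02 in second libraries and at 2.61 and 1.55 in first libraries, while for Set (-1.49 and -1.52) and Tap2 (1.33 and 1.47) the error bars overlap.

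Lefty1 had 230 and 184 CPM in second KO libraries against 146 and 127 in second WT libraries, and 416 and 306 CPM in first KO libraries against 54.2 and 61.8 in first WT libraries. The KO effect was 0.60 in second and 2.61 in first libraries (difference -2.01, SE 0.22, edgeR adjusted p = 6.71e-05). KO libraries exceeded WT libraries at both positions. Lefty2 showed the same order, 0.92 and 1.69 (difference -0.77, adjusted p = 0.0343). Pou3f1 had 109 and 145 CPM in second KO libraries against 127 and 131 in second WT libraries, and 136 and 140.0 against 45.9 and 47.2 CPM in first libraries (difference -1.57, SE 0.21, adjusted p = 0.000440). Its higher level in KO was thus seen in first libraries, with overlap in second ones. Otx2 had 156.5 and 163 CPM in second KO libraries and 296 and 277 in second WT libraries. In first libraries Otx2 had 210.5 and 203 CPM in KO and 142 and 131 in WT (difference -1.44, SE 0.17, adjusted p = 6.71e-05), so the direction turned with library order. Fgf15 turned likewise, with log2 changes of -1.28 in second and 0.71 in first libraries (difference -2.0, SE 0.34, adjusted p = 0.00613), and averaged 27.0 ± 0.86 CPM in summed KO samples (SD, n = 4) and 36.5 ± 12.9 CPM in WT (SD, n = 2).

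Naive genes split by library order as well. Tbx3 had 112 and 118 CPM in second KO libraries and 86.7 and 98.1 in second WT libraries, and 153 and 162 against 301 and 303 CPM in first libraries (difference 1.26, SE 0.18, adjusted p = 0.000642). Nanog and Tfcp2l1 had log2 changes of 0.11 and -0.02 in second libraries and of -0.85 and -0.94 in first libraries (differences 0.95 and 0.91, adjusted p = 0.0342 and 0.0233). Klf4 and Esrrb were lower in KO at both positions, at -0.84 and -0.73 in second libraries and at -1.09 and -1.01 in first libraries. Mras (-0.57 in second, -2.10 in first; adjusted p = 0.0184), Sall3 (0.25 and -1.70; adjusted p = 0.0303) and Halr1 (-2.42 and -1.13; adjusted p = 0.0362) also differed. Sp5 (2.73 in second, 0.60 in first; adjusted p = 0.0362) and Ccn1 (2.02 and 0.66; adjusted p = 0.0258) had larger effects in second libraries. For Axin2 and T the differences of 1.94 and 2.27 did not pass (adjusted p = 0.0935 and 0.0815).

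Set 2 was compared with set 1, the other undifferentiated R1 set, which holds 4 KO and 2 WT samples of 806412 to 1445013 counts. Fewer counts limit what set 1 can show, where 1200 of 9764 tested genes were called. The KO effect differed in 99 of 11950 genes (0.828%), 19 with a more positive and 80 with a more negative value in set 2. Of the 1003 set 2 calls also tested in set 1, 957 had the same sign, a share not computed over all tested genes. Of these 1003, 573 were called in set 1, which is 57.1% of those calls and 47.9% of the 1197 set 1 calls tested here. The number of genes whose KO effect differed between sets, 99 with all samples, moved when single samples were left out. The count was 22 without set 1 WT sample 1a, 44 without 1b and 52 without set 1 KO2 sample 1e. It was 43 without set 2 WT sample 2a, 41 without 2b, 52 without KO1 sample 2d and 62 without KO2 sample 2e.

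**Figure D5:**
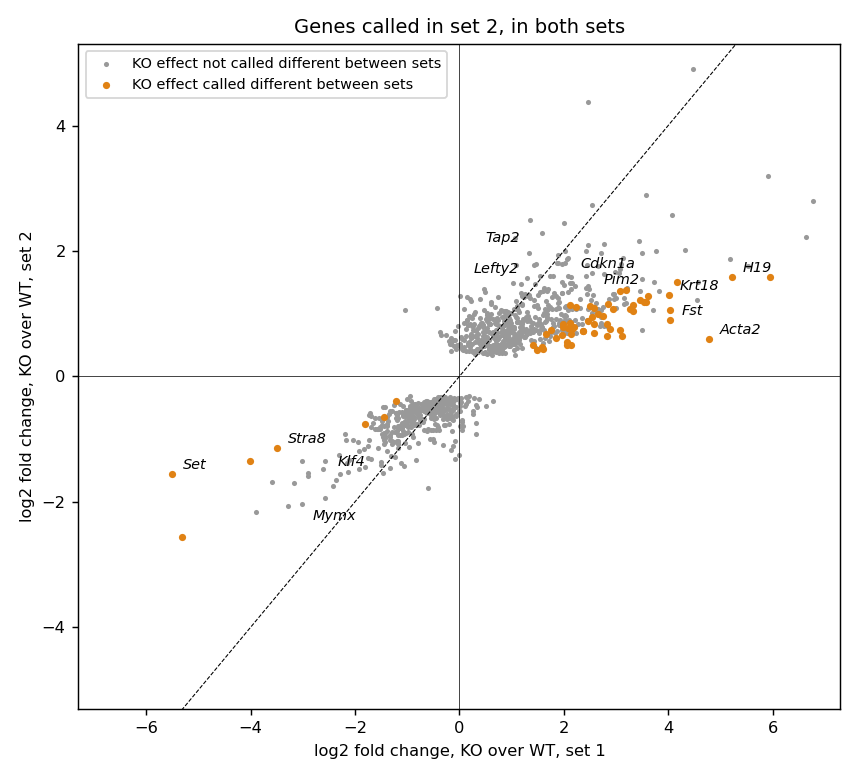
Log2 fold change of KO over WT in set 2 (vertical) against set 1 (horizontal) for the 1003 genes called in set 2 and tested in both sets, with the 60 whose effect differed between sets in orange and equality as a dashed line. Set lies at -1.56 in set 2 and -5.50 in set 1, and Krt18, Fst and Acta2 lie far to the right of the line.

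Set averaged 423 ± 126 CPM in KO and 1248 ± 127 in WT of set 2, and 22.9 ± 3.67 CPM in KO and 1055 ± 23 in WT of set 1 (SD, n = 4 and 2), a difference in log2 effect of 3.94 (SE 0.33, edgeR adjusted p = 2.48e-06). Cdkn1a, with log2 changes of 1.49 in set 2 and 2.11 in set 1, did not differ by the test (difference -0.63, adjusted p = 0.372). Tap2 (1.97 and 1.33; adjusted p = 0.866), Lefty2 (1.47 and 1.45; adjusted p = 0.988) and Klf4 (-1.14 and -1.56; adjusted p = 0.527) did not pass either, which does not show that the effects are equal.

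Some contractile, matrix and keratin genes had smaller KO effects in set 2, while the collagen gene Col4a1 and the desmosome gene Dsp did not pass (adjusted p = 0.176 and 0.0733). Acta2 averaged 226 ± 31.1 CPM in KO and 149.9 ± 16 in WT of set 2, against 112 ± 4.63 CPM in KO and 4.02 ± 1.85 in WT of set 1 (difference -4.22, SE 0.36, adjusted p = 6.22e-08). Thbs1 and Cald1, from the same fibroblast list, differed by -2.37 (adjusted p = 0.00273) and -1.65 (adjusted p = 0.00118). Krt18 averaged 63.5 ± 14.4 CPM in KO and 26.1 ± 2.16 in WT of set 2, against 159 ± 30.5 and 9.88 ± 2.66 CPM in set 1 (difference -2.75, SE 0.38, adjusted p = 0.000292), and Krt8 differed by -2.42 (adjusted p = 0.00175). WT means of these 5 genes were higher in set 2 than in set 1, a difference that was not tested. Pim2 (difference -1.39, adjusted p = 0.00396), Sparc (-0.99, adjusted p = 0.00481), Jun (-1.43, adjusted p = 0.00714) and Ccnd2 (-1.15, adjusted p = 0.0280) were called in both sets, with the smaller effect in set 2. Efnb2, an ephrin ligand, had 14.7, 18.4, 24.0 and 18.7 CPM in KO and 17.6 and 12.3 in WT of set 2, with overlapping samples, against means of 39.7 CPM in KO and 3.60 CPM in WT of set 1 (difference -3.05, adjusted p = 0.00150). Acta1 averaged 39.9 ± 13.7 CPM in KO and 13.5 ± 1.28 in WT of set 2 (SD, n = 4 and 2; log2 1.59, adjusted p = 0.00308, but 0.159 without 2b). In set 1 it averaged 61.7 CPM in KO and 0.89 CPM in WT, under the floor of 3 counts there. Stra8 had a smaller decrease in set 2 (-1.15 in set 2, -3.49 in set 1; difference 2.35, adjusted p = 0.00146).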

How the data were processed

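The deposited files hold raw read counts per gene, counted by the authors with featureCounts 1.6.0 on Ensembl 97 (GRCm38) with default, unstranded options, per the file headers. STAR 2.5.4b and Subread 2.0.0 are named in the submitters' processing notes. Reads mapping to several places or genes were not counted. Without strand, reads in exon bases shared by a gene and its antisense partner could not be told apart, so they were left out too. Of 109 genes named with values, 38 share exon bases with another gene. Values for close paralogs are uncertain.

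Counts of libraries with the same title code were summed. CPM were scaled by TMM. Genes passing filterByExpr (minimum count 10, minimum total 15) were tested by quasi-likelihood in edgeR 4.0.16 (R 4.3.3), with Benjamini-Hochberg adjustment over all tested genes and a threshold of 0.05. Fits used the 6 samples of set 2, or all 12 undifferentiated R1 samples for the sets, or 8 libraries for library order. Scripts were tested on simulated data. DESeq2 1.42.0, other filters, other units of replication and samples left out were tried as alternatives. Total counts per summed sample ran from 2833064 to 10217040.

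The members and the 32 gene lists were chosen with earlier results of these data known. Some genes belong to several lists, so counts of called members overlap between lists. Named genes were 20 key genes, the 12 highest and 12 lowest called changes with at least 10 CPM in the higher group, up to 5 called and 2 uncalled members per list, and 6 genes at each end of the line and set differences. Only some of these are printed.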

Additional observations from a re-analysis of the deposited data

Results flagged for a closer look

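In 9 of the 109 genes named with values, 1 of the 4 KO samples stood apart from the other 3. The measure was its gap to the nearest sample over the range of the group. Chance alone marks about 1 in 20 groups. The sample apart was always 2c or 2f, each a single library, and the part of this was not tested. The ratio was 0.9526 for Cdkn1a, with 2f high. It was 0.8457 for Acta2, 0.8987 for Inhbb and 0.9666 for Trp73, with 2c low in each. It was 0.8317 for Furin, with 2c high, and 0.8305 for Axin2, 0.8295 for Foxa2, 0.8546 for Fst and 0.8629 for Id2, with 2f low in each.

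The KO effect differed between set 2 and set 1 in the edgeR interaction test for 17 named genes. The log2 difference, set 2 minus set 1, was 3.938 for Set and 2.346 for Stra8. It was negative for Acta1 (-4.468), Acta2 (-4.218), H19 (-3.746), Fst (-3.185), Efnb2 (-3.051), Krt18 (-2.748), Krt8 (-2.417) and Thbs1 (-2.366). It was also negative for Cald1 (-1.65), Peg3 (-1.471), Jun (-1.427), Pim2 (-1.387), Ccnd2 (-1.151), Pou3f1 (-1.036) and Sparc (-0.99). Acta1 and H19 were under the floor of 3 counts in WT of set 1, so their fitted differences depend on the prior count.

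The KO effect differed between second and first libraries for 13 named genes, in the edgeR fit without the title code as a block. Fewer genes passed with the block, and which of these 13 did was not determined. The log2 difference, second minus first, was positive for Sp5 (2.131), Sall3 (1.946), Mras (1.527), Ccn1 (1.361), Tbx3 (1.256), Nanog (0.954) and Tfcp2l1 (0.913). It was negative for Lefty1 (-2.009), Fgf15 (-1.995), Pou3f1 (-1.569), Otx2 (-1.441), Halr1 (-1.293) and Lefty2 (-0.77).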

How the results depend on the processing

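Against the 1165 genes called between KO and WT, 759 passed with libraries left unsummed, 429 with the first library of each code, 1997 with counts summed per line, 434 within cluster A and 481 in first libraries. Leaving out each sample in turn gave 195 to 2335. Replicate numbers of the titles did not pair libraries (9 pairs, correlations of deviations -0.267 to 0.225), and with a replicate block 454 genes were called, 452 of them among the 1165. KO1 against WT gave 733 calls with the DESeq2 Wald test, 492 with single libraries and 319 to 1534 with a sample left out. KO2 against WT gave 368, 273 and 169 to 764. KO2 against KO1 gave 22 without a filter, 1 with single libraries and 1 to 56 with a sample left out. The set difference gave 171 without a filter and 22 to 127 with a sample left out. The library order difference gave 30 with DESeq2, 96 without a filter and 19 with the title code as a block. A lone WT sample was assumed to vary like the KO samples.

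Of 96 named called genes, 61 were still called without WT sample 2b. Signs turned in 9 named genes, and the cause was not tested. With the first library of each code, cluster A and first libraries in that order, the log2 change was -0.081, -0.40 and -0.381 for Axin2, 0.661, 0.684 and 0.715 for Fgf15, and 0.377, 0.47 and 0.604 for Otx2. For T it was -0.36 in cluster A and -0.517 in first libraries. In cluster B and in second libraries it was 0.125 and 0.106 for Nanog, -0.075 and -0.017 for Pou3f1, 0.063 and 0.25 for Sall3, and 0.326 and 0.311 for Tbx3. For Tfcp2l1 it was 0.051 in cluster B. Depth limits genes near the floor of 3 counts, most of all in set 1.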
